A study of Mus musculus with 2 samples.

Results

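A set of 10 genes of the smooth muscle contractile apparatus was followed in mRNA-seq libraries of mouse small intestinal epithelial cells, 1 library from mice without miR-215 (miR-215-/-, called the knockout library) and 1 from mice with it (miR-215+/+, the wild-type library). The genes were Acta1, Acta2, Actg2, Des, Myh11, Tagln, Cnn1, Myl9, Mylk and Synpo2, 10 of the 23284 genes listed in each library. They were chosen by symbol as markers of tissue beneath the epithelium, with their values in these same 2 libraries already known, so every difference between the genotypes below is a description and none is a test. miR-215 is a microRNA of the gut epithelium, and the series asks how its loss bears on inflammation of the small intestine. The labels give no allele beyond the genotype, and nothing read here states the strain, sex or age of the mice, how many mice gave each library or how the cells were isolated. With 1 library per genotype there is no replicate check, and higher or lower is said of the knockout library against the wild-type one.

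Smooth muscle contracts when calcium entering the cell binds calmodulin, which activates myosin light chain kinase, the product of Mylk. The kinase phosphorylates the regulatory light chain encoded by Myl9, and the myosin heavy chain of Myh11 then pulls on filaments of the actins encoded by Acta2 and Actg2. Calponin (Cnn1) and transgelin (Tagln) bind those filaments, and desmin (Des) and synaptopodin 2 (Synpo2) tie them into the cytoskeleton. In the gut these proteins are abundant in the muscle layers below the mucosa and in the thin muscle strands of the villus core, and the lining epithelium is known for non-muscle actins and myosins instead.

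The unit is FPKM, in which fragments are divided by transcript length and by library size, so that levels of genes of different length can be set side by side. The targeted gene, Mir215, was listed at 0 FPKM in the knockout library and at 137 FPKM in the wild-type library, although an mRNA library does not measure mature microRNAs. Another microRNA gene, Mir192, was listed at 387 FPKM in the knockout library and 0 in the wild-type library. Of genes at 1 FPKM or more in either library, 29 were at 0 in the knockout and 29 in the wild-type library. The Mir215 values alone therefore do not show the loss. The summed FPKM of all genes was 683884 in the knockout library and 750631 in the wild-type library. Read from the steps between low values, 1 FPKM over a 2 kb transcript rested on about 18.5 fragments in the knockout library and 17.9 in the wild-type library. Intervals below are exact 95% intervals from such estimated fragment numbers, assume 1 transcript length per gene and cover counting error only, since PCR copies are not independent molecules. All 12 epithelial markers were present, from 64.8 to 15926 FPKM in the knockout library and from 78.1 to 18795 FPKM in the wild-type library. Their presence does not show how pure the preparations were.

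All 10 contractile genes were listed above 0 in both libraries, and all 10 were higher in the knockout library. Of all 11504 genes at 1 FPKM or more in either library, 5059 were higher and 6445 lower in the knockout library. The level reached 1 FPKM for 9 of the 10 contractile genes in the knockout library and for 4 in the wild-type library. Together they summed to 115 FPKM in the knockout library and 49.0 FPKM in the wild-type library, a 2.35-fold difference, with Mylk the largest part in both. Without Mylk and the skeletal actin gene Acta1, which are also or mainly known from other cell types, the other 8 summed to 37.3 FPKM in the knockout library and 6.38 FPKM in the wild-type library, a 5.85-fold difference resting on about 763 and 110 fragments. In bulk RNA, a difference in the number of smooth muscle cells and a difference in RNA per cell cannot be told apart.

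**Figure D1:**
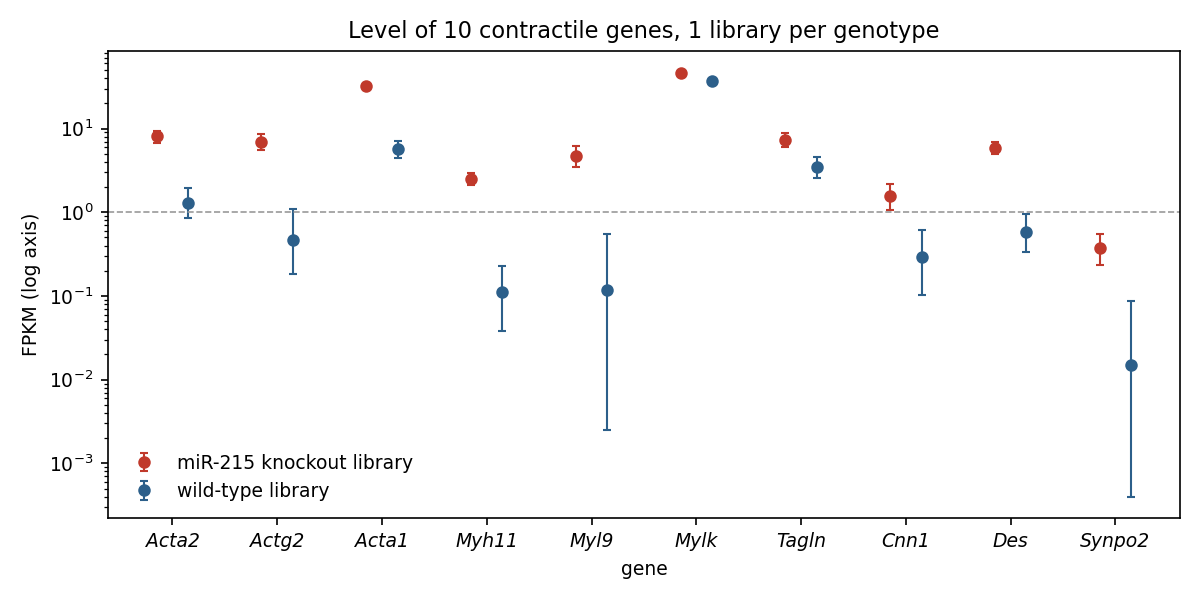
Level of each contractile gene in FPKM on a log axis, knockout library in red and wild-type library in blue, 1 point per library, with exact 95% Poisson counting intervals. The dashed line marks 1 FPKM. All 10 red points lie above their blue partners, and the intervals of Myl9 and Synpo2 in the wild-type library are the widest because each rested on about 1 fragment.

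The thin filament actins come first. Acta2 encodes alpha smooth muscle actin, the form of vascular muscle and myofibroblasts (chromosome 19, 34241090 to 34255590 of mm10, minus strand). It was at 8.04 FPKM in the knockout library and 1.30 FPKM in the wild-type library, about 151 fragments in the knockout and 24 in the wild-type library. The FPKM fold was 6.16 (3.94 to 9.81). Actg2 encodes gamma smooth muscle actin, the main actin of visceral muscle (chromosome 6, 83512905 to 83536265, minus strand). It was at 6.87 FPKM in the knockout library and 0.463 FPKM in the wild-type library, about 85 and 6 fragments, a fold of 14.8 (6.05 to 38.4). The visceral actin was thus at 0.854 of the Acta2 level in the knockout library and at 0.355 of it in the wild-type library, with overlapping fold intervals.

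Acta1 encodes the actin of skeletal muscle (chromosome 8, 123891769 to 123894751, minus strand) and was the highest of the muscle actins. It was at 32.0 FPKM in the knockout library and 5.69 FPKM in the wild-type library, about 427 and 74 fragments, a fold of 5.62 (4.36 to 7.25). Its ratio to Acta2 was 3.98 in the knockout library and 4.36 in the wild-type library, so both actins differed by about the same factor between the libraries. Other striated muscle genes were low in both libraries. Of 24 such genes, 10 were listed at 0 in both libraries, among them the cardiac actin gene Actc1, the skeletal myosin heavy chain genes Myh1, Myh2 and Myh4, the myoglobin gene Mb and the myogenic regulators Myod1 and Myog, which are named after their values were seen. The 24 genes summed to 9.50 FPKM in the knockout library and 10.9 FPKM in the wild-type library. Only the troponin T gene Tnnt1, at 2.18 FPKM in the knockout and 3.53 FPKM in the wild-type library, and the fast skeletal light chain gene Mylpf, at 4.88 FPKM in the knockout and 5.63 FPKM in the wild-type library, reached 1 FPKM. Their fold intervals, 0.348 to 1.14 for Tnnt1 and 0.518 to 1.43 for Mylpf, included 1.

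Because actin genes are alike, the sequence that could be shared between them was counted. The coding sequence of Acta1 was 85.4% identical to that of Acta2, 85.0% to that of Actg2 and 84.8% to that of the cytoplasmic actin gene Actb. Of the windows of 50 bases along the annotated transcript, 2.22% for Acta1 and 0.353% for Acta2 occurred in a transcript of another gene, and 0 of 1284 did for Actg2. Actb was among the genes that hold windows of Acta1, and was at 1970 FPKM in the knockout and 2037 FPKM in the wild-type library. For Myh11, 26 of 6500 such windows (0.4%) occurred in transcripts of Myh9 or Myh10. How much such sharing adds to the Acta1 or Myh11 level was not tested. At 100 bases no window of any of the 10 contractile genes occurred elsewhere. The read length and the authors' handling of shared reads are not stated in the labels, and matches with mismatches were not counted.

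The myosin genes had some of the highest folds and rested on few wild-type fragments. Myh11, the smooth muscle myosin heavy chain and a specific marker of this cell type (chromosome 16, 14194535 to 14291372, minus strand), was at 2.50 FPKM in the knockout library and 0.112 FPKM in the wild-type library. That was about 147 and 6 fragments over a transcript of 6382 nt and a fold of 22.3 (10.6 to 65.7). Myl9, the regulatory light chain (chromosome 2, 156775420 to 156781658, plus strand), was at 4.74 FPKM in the knockout library and 0.117 FPKM in the wild-type library. The wild-type value rested on about 1 fragment against 49 in the knockout library, so the fold of 40.5 has an interval of 8.13 to 1912. Both genes were close to undetected in the wild-type library, and both reached a few FPKM in the knockout library.

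Mylk, the light chain kinase (chromosome 16, 34745210 to 35002420, plus strand), behaved otherwise. It was the highest of the 10 genes in both libraries, at 45.9 FPKM in the knockout library and 36.9 FPKM in the wild-type library, about 3313 and 2581 fragments. The fold was 1.24 (1.18 to 1.31), and its interval lay below those of all 9 other genes. Mylk is also transcribed in epithelial cells as a long form that regulates the perijunctional actomyosin ring, and the gene-level values do not separate the forms. Relative to Acta2 it was at 5.70 in the knockout library and 28.3 in the wild-type library.

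Among the filament-binding genes, Tagln, which encodes transgelin (SM22 alpha; chromosome 9, 45929619 to 45936058, minus strand), was at 7.38 FPKM in the knockout library and 3.50 FPKM in the wild-type library. That is about 109 and 50 fragments and a fold of 2.11 (1.497 to 3.01), the lowest after Mylk. Cnn1, calponin 1 (chromosome 9, 22099216 to 22109630, plus strand), was at 1.55 FPKM in the knockout library and 0.288 FPKM in the wild-type library, about 34 and 6 fragments, a fold of 5.39 (2.28 to 15.99). The interval of Tagln lay below those of Acta1, Acta2, Actg2, Des, Myh11, Myl9 and Synpo2 and overlapped only that of Cnn1. In the wild-type library Tagln stood at 2.68 times the Acta2 level, and in the knockout library at 0.918 of it.

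The cytoskeletal anchors were Des and Synpo2. Des, the muscle intermediate filament protein desmin (chromosome 1, 75360329 to 75368579, plus strand), was at 5.85 FPKM in the knockout library and 0.581 FPKM in the wild-type library. It rested on about 164 and 16 fragments, with a fold of 10.1 (5.93 to 17.8). Synpo2, an actin-bundling protein of muscle (chromosome 3, 123076519 to 123236149, minus strand), was at 0.372 FPKM in the knockout library and 0.0148 FPKM in the wild-type library, about 24 fragments and 1 fragment. Its fold of 25.0 (3.79 to 956) has, with that of Myl9, the widest interval of the 10, and it was the only gene of the 10 that reached 1 FPKM in neither library.

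**Figure D2:**
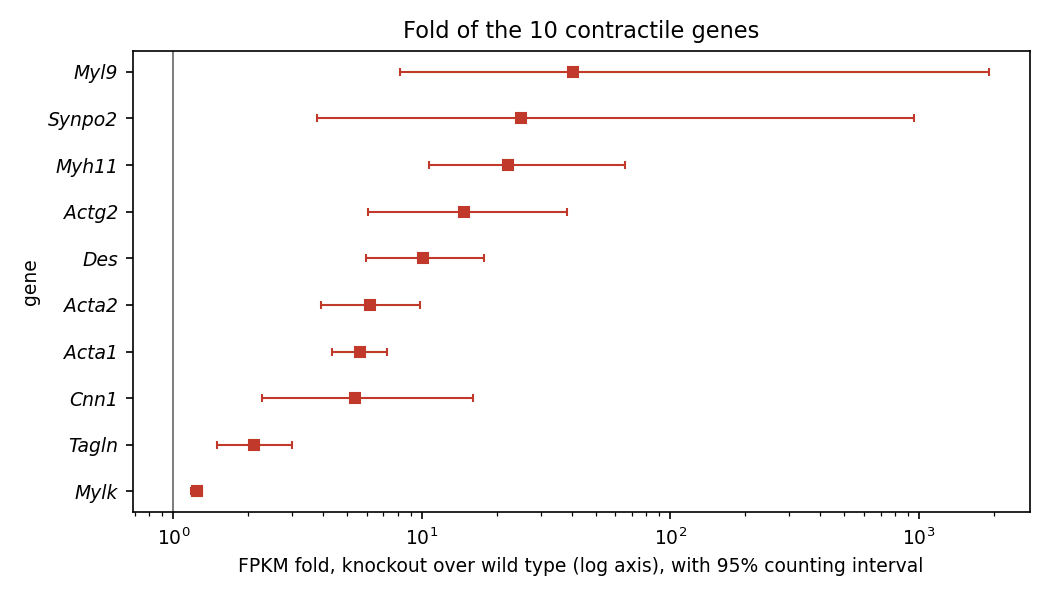
FPKM fold of each contractile gene, knockout over wild type, on a log axis with exact 95% counting intervals from estimated fragments. Every interval lies above 1 (vertical line), from Mylk at 1.24 to Myl9 at 40.5, and Mylk and Tagln stand below most of the others. At the shortest annotated transcript length, those of Tagln, Cnn1, Mylk and Synpo2 include 1. The genes were chosen on this contrast, and intervals of nearly equal genes can also exclude 1 (Actb, 0.953 to 0.981), so nothing is read from this.

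The folds of the 10 genes were not alike. Of the 45 pairs, 19 had fold intervals that do not overlap, 9 of them pairs with Mylk. The differences in level ranked the genes otherwise than the folds. The knockout library exceeded the wild-type library by 6.74 ± 0.71 FPKM for Acta2, 6.41 ± 0.78 for Actg2, 5.27 ± 0.48 for Des, 4.63 ± 0.68 for Myl9 and 3.89 ± 0.87 for Tagln (± the counting SD of the difference). It exceeded it by 2.39 ± 0.21 FPKM for Myh11, 1.27 ± 0.29 for Cnn1 and 0.357 ± 0.077 for Synpo2. Tagln, with the second lowest fold, lay inside the range of the others on the scale of differences. Mylk differed by 8.96 ± 1.08 FPKM and Acta1 by 26.3 ± 1.68 FPKM. The Mylk difference depends on how the libraries are scaled, and was 13.4 FPKM once the knockout values were multiplied to the wild-type sum.

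The order of levels also differed between the libraries. In the knockout library it ran Mylk, Acta1, Acta2, Tagln, Actg2, Des, Myl9, Myh11, Cnn1 and Synpo2, and the counting intervals of the neighbours from Acta2 through Myl9 overlapped, as did those of Myh11 and Cnn1. In the wild-type library it ran Mylk, Acta1, Tagln, Acta2, Des, Actg2, Cnn1, Myl9, Myh11 and Synpo2. There the intervals of neighbours overlapped from Acta2 down to Synpo2, and narrowly for Acta1 and Tagln, so that only Mylk from Acta1 and Tagln from Acta2 stood apart.

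For the count across all genes, a gene was kept if either library reached 1 FPKM, and the log2 ratio was taken as log2(FPKM + 1), knockout minus wild type. This scale understates differences of low genes. Of the 10 contractile genes 9 were kept, 5 of them through the knockout library alone, and Synpo2 was not. A rule of 2-fold on this scale was passed upward by 6, namely Actg2 (2.43), Myl9 (2.36), Acta1 (2.30), Des (2.12), Acta2 (1.97) and Myh11 (1.65), against 1.34% of the 11504 genes kept, and downward by 0, against 2.04%. Since this contrast chose the genes and their filter, nothing is read from those shares. Just outside the rule were Cnn1 at 0.99 and Tagln at 0.90, and Mylk was at 0.31. The median of the 9 was 1.97 and that of all genes kept was -0.05. With the knockout values multiplied to the wild-type sum, the median of all genes was 0.07, and 8 of the contractile genes passed the rule. Under that scaling 209 of all genes were past it upward and 185 downward, in place of 154 and 235.

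**Figure D3:**
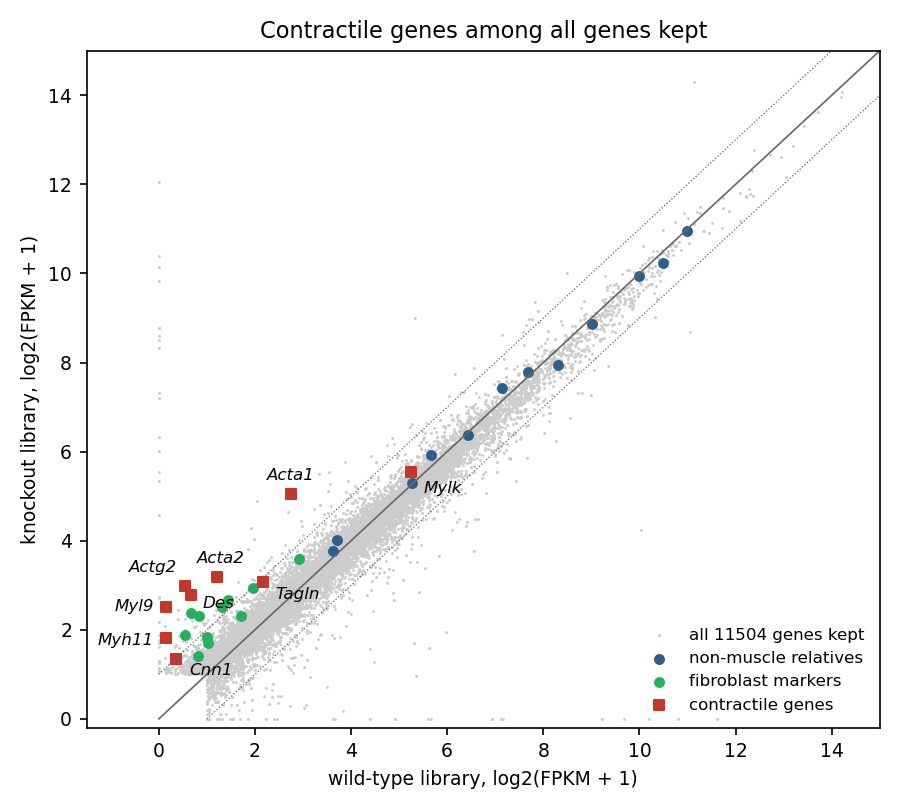
Level of each of the 11504 genes kept as log2(FPKM + 1), knockout library on the vertical and wild-type library on the horizontal axis. The solid line marks equal values and the dotted lines 2-fold. Of the 9 contractile genes kept (red squares), 6 lie above the upper dotted line and Mylk lies close to the diagonal with the non-muscle relatives (blue), while fibroblast markers (green) lie above the diagonal.

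The 20 highest log2 ratios, taken where either library reached 5 FPKM, held none of the contractile genes. Of these 20, 18 belonged to genes shorter than 200 nt, such as microRNA and snoRNA genes, and 17 were at 0 in the wild-type library. The other 2 were H2-Bl and Fkbp5. Without such short genes, an exclusion that was not planned, Actg2, Acta1, Des and Acta2 stood at ranks 4, 6, 8 and 12 of 8230. Actg2, Des and Acta2 reached 5 FPKM in the knockout library alone. Since this contrast chose the genes, nothing is read from these ranks. Among the kept genes whose pair of levels lay nearest to the median of the contractile genes, by distance on the log2(FPKM + 1) scale over the 2 libraries, were Gnrh1 (0.60), Col6a1 (0.61), Ren1 (0.67) and Col3a1 (0.69). Over 2 libraries such likeness is weak, and the wild-type level of Gnrh1 rested on about 1 fragment. Col6a1 and Col3a1 encode collagens of the connective tissue and were at 4.17 and 3.97 FPKM in the knockout library, and at 0.599 and 0.785 FPKM in the wild-type library.

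The muscle actins, Myh11, Myl9, Tagln and Cnn1 were set beside non-muscle relatives, and Des, Mylk and Synpo2 were not. The share of the muscle form within its family does not depend on the scaling between libraries. Acta2 and Actg2 together made up 0.496% of the summed FPKM of the 6 actin genes in the knockout library and 0.0577% in the wild-type library, and Acta1 made up 1.07% in the knockout library and 0.186% in the wild-type library. Myh11 was 1.07% of the sum with the non-muscle heavy chains Myh9, Myh10 and Myh14 in the knockout library and 0.0594% in the wild-type library. Myl9 was 0.854% of the sum with Myl12a and Myl12b in the knockout library and 0.0196% in the wild-type library. Tagln was 2.91% of the sum with Tagln2 in the knockout library and 1.09% in the wild-type library, and Cnn1 was 5.32% of the sum with Cnn2 and Cnn3 in the knockout library and 1.22% in the wild-type library. In each of these families the muscle form was the minor one in both libraries.

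**Figure D4:**
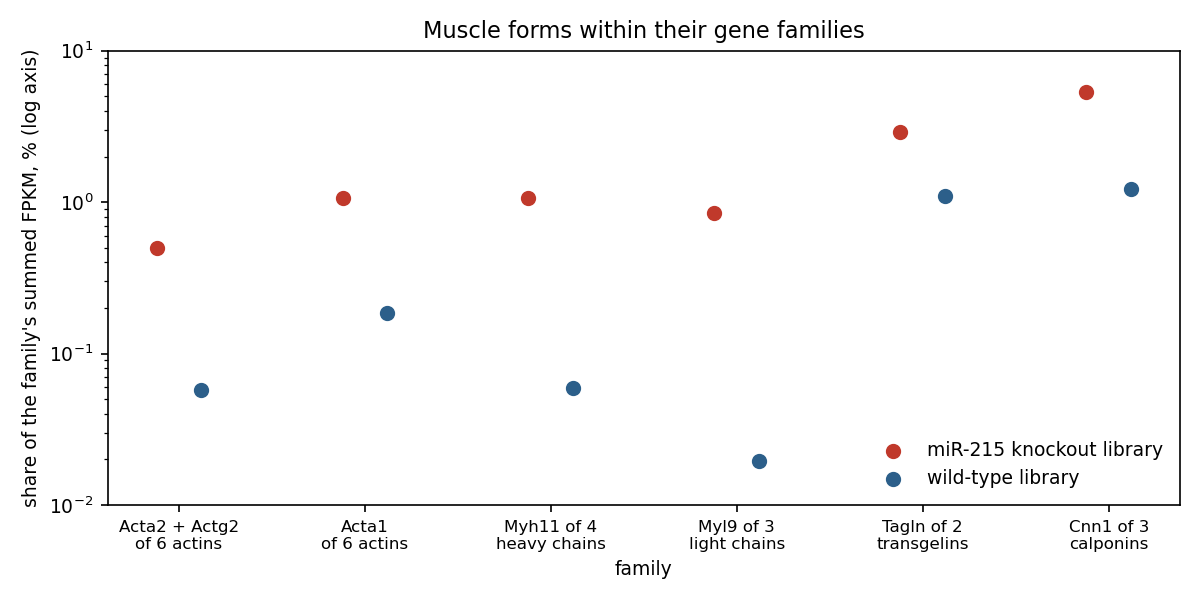
Share of the muscle form in the summed FPKM of its gene family, in percent on a log axis, knockout library in red and wild-type library in blue, 1 point per library. Each red point lies above its blue partner, with the widest gap for Myl9 (0.854% and 0.0196%) and the narrowest for Tagln (2.91% and 1.09%).

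The non-muscle relatives themselves differed little. Of 13 genes 12 were kept, 6 above and 6 below 0 and none past 2-fold, with a median log2 ratio of -0.01, or 0.12 with the sums made equal. Actb, the main cytoplasmic actin, was at 1970 FPKM in the knockout library and 2037 FPKM in the wild-type library. The non-muscle heavy chain genes Myh14, at 172 FPKM in the knockout and 139 FPKM in the wild-type library, and Myh9, at 59.6 FPKM in the knockout and 49.8 FPKM in the wild-type library, were slightly higher. Tagln2 was lower, at 247 FPKM in the knockout library and 317 FPKM in the wild-type library, a fold of 0.779 (0.745 to 0.814), opposite in direction to Tagln as deposited. Cnn3 was at 15.1 FPKM in the knockout and 12.1 FPKM in the wild-type library.

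Further parts of the contractile machinery were read from a list of 20 partner genes, of which 16 were kept. Of these, 10 were above 0 and 1 passed 2-fold upward, against 1.34% of all genes kept, with a median of 0.22. Tpm2, the beta-tropomyosin of smooth muscle filaments, was at 2.51 FPKM in the knockout library and 0.597 FPKM in the wild-type library, a fold of 4.20 (1.94 to 9.62). Caldesmon (Cald1), which restrains actomyosin, was at 1.39 FPKM in the knockout and 0.536 FPKM in the wild-type library, 2.60-fold (1.51 to 4.53). Filamin A (Flna), an actin cross-linker, was at 4.31 FPKM in the knockout and 1.84 FPKM in the wild-type library, 2.34-fold (1.91 to 2.88). In the other direction, the LIM domain gene Fhl1 was at 5.89 FPKM in the knockout library and 9.50 FPKM in the wild-type library. The smoothelin gene Smtn, named after its value was seen, was at 2.97 FPKM in the knockout and 3.02 FPKM in the wild-type library. Its fold of 0.984 had an interval that included 1 (0.724 to 1.33). The most abundant partner, Tpm1, was at 255 FPKM in the knockout and 284 FPKM in the wild-type library. Tpm1 was far above Acta2 (8.04 and 1.30 FPKM), and bulk values do not tell which cells its RNA came from. Below 1 FPKM, and named after their values were seen, the 4 genes not kept went both ways. The filament nucleator gene Lmod1 rested on about 6 fragments in the knockout library and none in the wild-type library, the intermediate filament gene Synm on about 28 in the knockout and 5 in the wild-type library, and the integrin gene Itga8 on about 8 in the knockout and 1 in the wild-type library. The actin-binding gene Nexn had none in the knockout library and about 3 in the wild-type library. Over all 20 partners, 13 were higher and 7 lower in the knockout library.

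Most genes of calcium handling and of the signals that set muscle tone were low. Of 15 genes 6 were kept, 2 above 0 and none past 2-fold, with a median of -0.13. Among the kept genes, Rhoa, Atp2a2, Rock1 and Rock2 were above Acta2 in both libraries. Bulk values do not tell which cells their RNA came from, so the median is not that of muscle cells alone. The calcium pump gene Atp2a2 was at 80.8 FPKM in the knockout library and 58.2 FPKM in the wild-type library, and the inositol trisphosphate receptor gene Itpr1 at 4.90 FPKM in the knockout and 9.16 FPKM in the wild-type library. The kinase genes Rock2, at 25.4 FPKM in the knockout and 20.3 FPKM in the wild-type library, and Rock1, at 12.4 FPKM in the knockout and 14.2 FPKM in the wild-type library, differed in opposite directions, and the GTPase gene Rhoa was at 191 FPKM in the knockout and 206 FPKM in the wild-type library. The 9 genes not kept rested on at most 15 fragments in the knockout library and 18 in the wild-type library, both reached by Mrvi1. Gucy1a3, a subunit of the nitric oxide receptor, rested on about 9 fragments in the knockout and 1 in the wild-type library, a fold of 9.63 (1.21 to 382). Over all 15 genes, 7 were higher and 7 lower in the knockout library. Kcnmb1, a subunit of the smooth muscle potassium channel, was listed at 0 in both libraries, and Pln, the phospholamban gene, rested on about 1 fragment in the knockout library and had none in the wild-type library.

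Transcription of smooth muscle genes is known to run through serum response factor, which binds CArG boxes, a run of A and T between a pair of C and a pair of G, together with myocardin or the related factors encoded by Mkl1 and Mkl2. Srf was at 11.5 FPKM in the knockout library and 10.2 FPKM in the wild-type library, a fold of 1.12 (0.940 to 1.34). Mkl1 was at 7.28 FPKM in the knockout and 6.21 FPKM in the wild-type library, and Mkl2 at 5.78 FPKM in the knockout and 4.79 FPKM in the wild-type library. The myocardin gene Myocd, specific to muscle, rested on about 1 fragment in the knockout library and had none in the wild-type library. The gut mesenchyme factor genes Nkx2-3, with about 14 fragments in the knockout and 2 in the wild-type library (fold 6.74, 1.56 to 61.5), and Foxf2, with about 10 in the knockout and 2 in the wild-type library (fold 4.82, 1.03 to 45.5), were also under 1 FPKM, and Hand1 was at 0 in both. Of the 7 list genes measured, 6 were higher in the knockout library, and 3 were kept of which none passed 2-fold, with a median of 0.20.

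Promoter windows, from 250 bases before to 50 after the gene start that RefSeq gives, were found for 7 of the 10 contractile genes in RefSeq on GRCm38.p6, namely Acta1, Acta2, Des, Cnn1, Myl9, Mylk and Synpo2. These starts differ from the outer gene bounds given above, which are GENCODE's: that of Acta2 lies 217 bases and that of Mylk 39740 bases inside the gene, and those of the other 5 within 44 bases of its bound. The exact CArG box, searched on both strands, which are equivalent for this motif, occurred in 2 of the 7, Acta1 and Myl9, and in 1.63% of all 32851 windows. With at most 1 mismatch it occurred in 3 of the 7, the third being Acta2, and in 21.1% of all windows. Those 3 windows are shown because they hold the motif, 5′ to 3′ along the gene, with boxes of at most 1 mismatch in capitals. The exact boxes begin 73 bases before the RefSeq start of Acta1 and 161 bases before that of Myl9. The windows lie at chr8:123894726-123895025 (minus strand), chr19:34255324-34255623 (minus strand) and chr2:156775214-156775513 (plus strand).
Acta1: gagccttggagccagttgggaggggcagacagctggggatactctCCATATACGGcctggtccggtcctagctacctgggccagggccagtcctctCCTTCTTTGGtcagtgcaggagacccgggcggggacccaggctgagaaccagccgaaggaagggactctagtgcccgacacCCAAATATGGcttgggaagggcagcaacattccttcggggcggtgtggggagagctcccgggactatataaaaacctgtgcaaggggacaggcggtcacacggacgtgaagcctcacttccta
Acta2: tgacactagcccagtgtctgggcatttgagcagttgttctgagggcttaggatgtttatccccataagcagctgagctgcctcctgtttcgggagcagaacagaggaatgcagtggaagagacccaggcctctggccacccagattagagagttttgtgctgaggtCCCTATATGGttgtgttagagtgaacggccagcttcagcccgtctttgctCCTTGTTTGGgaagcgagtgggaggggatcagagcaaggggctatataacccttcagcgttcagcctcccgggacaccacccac
Myl9: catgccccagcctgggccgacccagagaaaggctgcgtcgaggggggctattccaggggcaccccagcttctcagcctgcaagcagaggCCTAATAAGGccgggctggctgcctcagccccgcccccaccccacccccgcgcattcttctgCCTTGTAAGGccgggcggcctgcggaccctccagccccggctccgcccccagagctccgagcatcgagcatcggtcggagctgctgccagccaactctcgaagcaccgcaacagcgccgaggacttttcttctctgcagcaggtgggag
These 3 genes were at 32.0, 8.04 and 4.74 FPKM in the knockout library, and at 5.69, 1.30 and 0.117 FPKM in the wild-type library. Des, Cnn1, Mylk and Synpo2, without a box in the window, were also higher in the knockout library. A match in the window is a description of sequence and says nothing of binding.

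Markers of other cells found beneath the epithelium were read beside the contractile genes. All 11 kept fibroblast markers of a list of 15 were above 0 and 5 passed 2-fold, with a median of 0.98. Of all 11504 genes kept, 5059 were above 0 and 1.34% passed 2-fold upward. The 15 markers summed to 51.4 FPKM in the knockout library and 20.1 FPKM in the wild-type library, 2.55-fold, and none was at 0. Besides Col6a1 and Col3a1, Col6a2 was at 2.69 FPKM in the knockout and 0.466 FPKM in the wild-type library, the matrix glycoprotein gene Sparc at 5.34 FPKM in the knockout and 1.72 FPKM in the wild-type library, and the most abundant, the intermediate filament gene Vim, at 11.0 FPKM in the knockout and 6.56 FPKM in the wild-type library. The 9 endothelial markers summed to 9.61 FPKM in the knockout library and 4.83 FPKM in the wild-type library, where Kdr and Emcn were listed at 0. Of the 9, 8 were higher and 1, Tek, was lower in the knockout library. Plvap, a protein of fenestrated capillaries, was at 3.77 FPKM in the knockout and 0.454 FPKM in the wild-type library, while the angiopoietin receptor gene Tek was at 0.156 FPKM in the knockout and 1.02 FPKM in the wild-type library. The median of the 4 kept was 0.32.

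Pericytes, the mural cells of capillaries, share Acta2 with smooth muscle. Their markers summed to 4.61 FPKM in the knockout library and 2.60 FPKM in the wild-type library over 7 genes. Of these, 2 were kept and neither passed 2-fold. Mcam was at 1.14 FPKM in the knockout and 0.459 FPKM in the wild-type library and Pdgfrb at 1.46 FPKM in the knockout and 1.34 FPKM in the wild-type library. Rgs5, named after its value was seen, rested on about 21 fragments in the knockout library and had none in the wild-type library. All 7 pericyte markers were higher in the knockout library. The fold intervals of Rgs5, Mcam and Cspg4 lay above 1. Those of Pdgfrb (0.768 to 1.54), Kcnj8 (0.478 to 2.24), Abcc9 (0.673 to 6.29) and Notch3 (0.542 to 229) included 1. Macrophage markers were above 0 in all 8 measured genes, 1 past 2-fold against 1.34% of all genes kept, with a median of 0.53. They summed to 73.3 FPKM in the knockout library and 44.7 FPKM in the wild-type library. C1qa was at 12.3 FPKM in the knockout and 4.93 FPKM in the wild-type library, and Lyz2, the most abundant, at 25.8 FPKM in the knockout and 17.8 FPKM in the wild-type library.

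Markers of cells that lie in or on the muscle coat summed to at most 10.1 FPKM per list in either library. Markers of interstitial cells of Cajal, the pacemakers of gut muscle, summed to 3.53 FPKM in the knockout library and 3.69 FPKM in the wild-type library over 3 genes, and Kit, also expressed by mast cells, was at 2.79 FPKM in the knockout and 2.75 FPKM in the wild-type library. The 12 markers of enteric neurons and glia summed to 2.08 FPKM in the knockout library and 2.10 FPKM in the wild-type library, with Gfap, Sox10 and Nos1 at 0 in both, and only Ret reached 1 FPKM (0.610 FPKM in the knockout library and 1.05 in the wild-type library). In the knockout library 1 Cajal cell marker was higher and 2 were lower, and of the neuron and glia markers 5 were higher and 4 lower. The 5 mesothelial markers, of the outer lining of the gut, summed to 6.57 FPKM in the knockout library and 10.1 FPKM in the wild-type library. Of these, 4 were higher and 1, Upk1b, was lower in the knockout library. Msln was at 2.07 FPKM in the knockout and 0.699 FPKM in the wild-type library, and Upk1b at 2.85 FPKM in the knockout and 7.82 FPKM in the wild-type library. Epithelial markers had a median of 0.02 over all 12 genes and none past 2-fold, with Cdx2 at 64.8 FPKM in the knockout and 124 FPKM in the wild-type library, Krt20 at 2287 FPKM in the knockout and 1721 FPKM in the wild-type library, and Fabp2, the most abundant, at 15926 FPKM in the knockout and 18795 FPKM in the wild-type library. The markers of fibroblasts, endothelium, pericytes and macrophages were thus higher in sum in the same library as the contractile genes. Their part in the difference was not tested, and with 1 library each, genotype and preparation cannot be told apart.

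**Figure D5:**
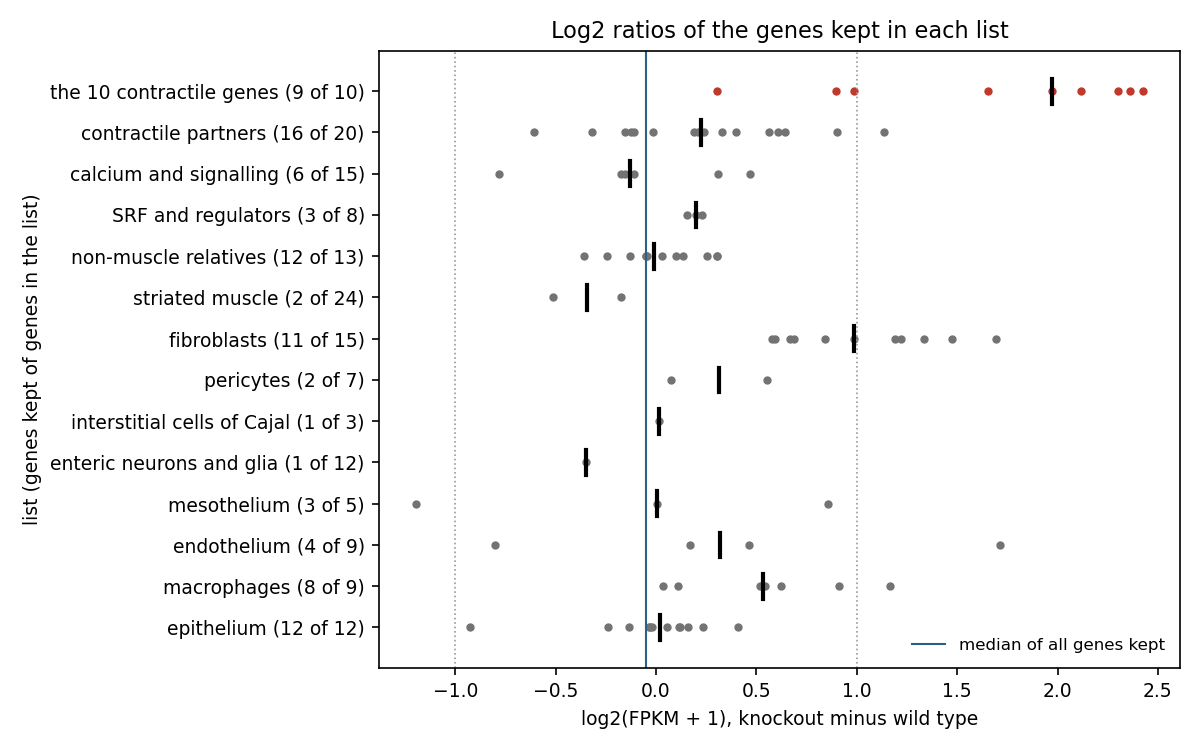
Log2 ratio, knockout minus wild type on the log2(FPKM + 1) scale, of each gene kept (points) and the median (black bar) for the contractile genes and 13 other lists, with the number kept of the number in the list. The blue line is the median of all genes kept and the dotted lines mark 2-fold. The contractile genes have a median of 1.97 and fibroblast markers 0.98, while the medians of epithelial markers and non-muscle relatives lie near 0. Single epithelial markers ran from -0.93 (Cdx2) to 0.41 (Krt20).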

How the data were processed

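The members and all gene lists were chosen with earlier results of these data known. Per the labels' protocols, RNA came from RNeasy columns, and a stranded TruSeq mRNA kit gave the libraries. Cuffnorm 2.2.1, TopHat2 2.0.13, Bowtie2 2.2.3, SAMtools 0.1.19 and the build mm10 are listed, per the submitters' processing notes. The role and settings of each tool, the annotation and any scaling of the libraries to each other are not stated there. The deposited values are FPKM made by the authors, a unit inferred from the tool named and from the values, since no header names it. FPKM is not a count, so no count model was used.

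The FPKM × kb worth of 1 fragment was read from protein-coding genes with 1 annotated transcript over 1500 nt and a value under 0.3 FPKM. It was 0.108 in the knockout library (333 genes) and 0.112 in the wild-type library (316 genes). Their quotient, 0.968, is close to the most frequent ratio of low values, 0.963, shared by 246 of 602 genes under 0.1 FPKM in both libraries. Fragments were estimated with the median length of RefSeq-linked GENCODE M21 transcripts (GRCm38, the assembly of mm10; 22822 of 23284 symbols matched) and rounded. Folds have exact 95% Clopper-Pearson intervals and levels exact Poisson intervals, for counting error only. Log2 ratios used a pseudocount of 1. The worth of a fragment and the fold intervals were tested on simulated data. These held independent fragments and 1 known length per gene, so errors of length and PCR copies were not covered.

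The planned comparison of actin proteins was replaced by one of coding sequences. Named genes were the 10 members, from each list its most abundant gene and up to 4 kept genes with the greatest absolute log2 ratio, the 5 genes nearest to the members' median level (1 of them is not reported here), and genes among the 20 highest log2 ratios at 5 FPKM or more; genes at or near 0, and other exceptions, were named after their values were seen. Python 3.11.15, NumPy 2.4.6, pandas 2.3.3, SciPy 1.17.1, Biopython 1.88 and matplotlib 3.10.9 were used.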

Additional observations from a re-analysis of the deposited data

How the results depend on the processing

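All 10 contractile genes were higher in the knockout library under every scaling tried. Both scalings multiplied the knockout values upward, by 1.10 for equal sums and 1.07 for equal upper quartiles, so no gene could have turned. With a pseudocount of 0.1, the members' median log2 ratio was 2.54, and 339 of all genes kept were past 2-fold upward and 361 downward. With a pseudocount of 5, 3 members passed 2-fold, the members' median was 0.93, and 60 and 120 genes passed. With a minimum of 5 FPKM, 97 genes passed upward. These pseudocounts move low genes by construction. Of 51 alternative member log2 ratios, none was below 0, but none of these settings could have changed the direction of a member. With the length of the shortest annotated transcript in place of the main one, the fold intervals of Tagln (0.977 to 4.41), Cnn1 (0.542 to 229), Mylk (0.977 to 1.57) and Synpo2 (from 0.0248) included 1. Depth limits the wild-type values of Myl9 and Synpo2, about 1 fragment each. No replicate could be left out, since each genotype had 1 library, and no paired analysis was possible because each genotype had 1 library.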
